A study of Homo sapiens with 6 samples.

Results

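The G1 cyclins, kinases and CDK inhibitors described here are 10 genes, taken by symbol from the count table of HCT116 cells: CCND1, CCND3, CCNE1, CCNE2, CDK2, CDK4, CDK6, CDKN1B, CDKN2B and CDKN2C. All 10 symbols were found among the 23368 listed, and all 10 had enough reads to be tested. RNA had been sequenced from HCT116, an established human colon cancer line, with 3 libraries of cells given an siRNA against ADNP (siADNP) and 3 libraries of cells given a control siRNA (siControl). ADNP is a zinc finger and homeodomain protein of chromatin, and the design sets cells depleted of it against cells that keep it. The cell line and the colon cancer origin are shared by every library, and the labels do not give the siRNA sequences, the dose or the time after transfection. Each group has 3 biological replicates by the study's design text. Separate cultures are not stated, and a p-value here covers just the variation among the 6 libraries, which could be technical in part.

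In G1, D-type cyclins bind CDK4 or CDK6, and E-type cyclins bind CDK2. These kinases phosphorylate the retinoblastoma protein RB, which releases E2F transcription factors and lets cells enter S phase. Inhibitors of the INK4 class, such as p15 (CDKN2B) and p18 (CDKN2C), bind CDK4 and CDK6, while those of the CIP/KIP class, such as p27 (CDKN1B) and p21 (CDKN1A), bind cyclin and CDK complexes. In colon cancer cells cyclin D1 is known as a gene that responds to WNT and growth factor signals.

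Reads assigned to genes numbered 7396771 to 8726017 in the siADNP libraries and 8282290 to 10265175 in the siControl libraries. The knockdown was seen in every library, with ADNP at 46.7, 55.3 and 59.8 CPM (counts scaled to library size) in siADNP cells against 171, 155 and 167 CPM in siControl cells. Of 8 epithelial markers, the keratins KRT8 and KRT18 and the adhesion molecule EPCAM were abundant, while CDX1 and VIL1 had no read in any library. Of the 6 tested, only KRT19 was called, at 470, 428 and 434 CPM in siADNP libraries and 472, 507 and 495 CPM in siControl libraries (log2 fold change -0.15, adjusted p = 0.0203, edgeR). The summed epithelial level was 3017 to 3229 CPM in siADNP libraries and 3126 to 3190 CPM in siControl libraries. The 6 fibroblast markers summed to 7.59 to 10.3 CPM against 7.48 to 8.20 CPM, with DCN and LUM at 0. The 5 blood cell markers summed to 9.29 to 10.3 CPM in siADNP cells and 6.87 to 7.62 CPM in siControl cells, nearly all of it from CD68, with HBB at 0. CD68, the only blood cell marker tested, was called higher (log2 fold change 0.42, adjusted p = 0.0366, edgeR). The part of these levels in the results below was not tested. The genes called lower with siADNP had a median GC content of 43.0%, those called higher 54.0% and those not called 48.6%. Values with a GC correction are therefore given beside the 4 genes that fell and where that correction ends a call. For KRT19, CD68, INTS8, MYC and MEN1 no value with that correction was read out.

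Promoters show what the letters around a start site hold for a kinase whose mRNA fell, CDK6, for its close relative that was not called, CDK4, and for the inhibitor whose mRNA fell, CDKN2B. Each runs from 250 bases before to 50 bases after a RefSeq start, 5′ to 3′ on the gene's minus strand in build GRCh38.p14. Capitals mark the E-box CACGTG, a site that MYC and MAX can bind, and the GC box GGGCGG or its reverse complement, a site for SP1. The regions are chr7:92836524-92836823 for CDK6, chr12:57752261-57752560 for CDK4 and chr9:22009256-22009555 for CDKN2B.
CDK6: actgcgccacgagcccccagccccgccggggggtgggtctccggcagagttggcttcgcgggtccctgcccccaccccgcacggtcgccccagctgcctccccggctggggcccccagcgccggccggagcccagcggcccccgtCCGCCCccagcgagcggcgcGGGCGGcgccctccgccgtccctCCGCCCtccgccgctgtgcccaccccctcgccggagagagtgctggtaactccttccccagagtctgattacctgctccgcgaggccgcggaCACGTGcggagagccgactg
CDK4: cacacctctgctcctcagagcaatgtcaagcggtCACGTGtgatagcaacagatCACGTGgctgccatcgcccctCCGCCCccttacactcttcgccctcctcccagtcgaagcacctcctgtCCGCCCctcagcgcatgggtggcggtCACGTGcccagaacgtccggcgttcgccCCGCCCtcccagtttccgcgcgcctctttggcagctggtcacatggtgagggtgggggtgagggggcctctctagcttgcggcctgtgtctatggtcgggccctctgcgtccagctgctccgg
CDKN2B: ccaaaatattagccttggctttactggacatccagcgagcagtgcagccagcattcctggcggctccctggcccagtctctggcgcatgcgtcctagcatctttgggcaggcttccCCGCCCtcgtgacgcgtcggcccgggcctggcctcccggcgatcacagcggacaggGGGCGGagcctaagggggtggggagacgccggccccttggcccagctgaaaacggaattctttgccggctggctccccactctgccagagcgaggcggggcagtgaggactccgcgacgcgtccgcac
The CDK4 promoter held 3 E-boxes, beginning at -216, -196 and -101 from the start, that of CDK6 held 1, beginning at 31 after it, and that of CDKN2B held none. A second RefSeq start of CDK6, with its window at chr7:92833910-92834209 and a GC content of 68.7%, had neither an E-box nor a GC box. An E-box occurred in 7.26% of the 35116 RefSeq promoters of this length. GC boxes, found in 45.0% of all promoters, numbered 3 in the printed CDK6 window, 3 in CDK4 and 2 in CDKN2B. The E2F letters TTTCCCGC, TTTGGCGC, TTTCGCGC and TTTGCCGC, read on both strands, occurred in 3.31% of all promoters and in none of the 12 windows of the 7 genes looked up. Both motif counts describe these windows only. CCND1 and CDK2 had no entry among the RefSeq promoters used. Windows on the chromosome of CCNE2 were left out before the search, so CCNE2, whose mRNA fell, was not looked up. Nothing is thus given on the promoters of CCND1, CCNE2 and CDK2, and the E2F result does not cover them. The printed CDK6 window had a GC content of 78.0%, CDK4 66.0% and CDKN2B 67.3%, against a median of 58.7% over all promoters.

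Of the 10 genes, 4 were lower with siADNP, none was higher and 6 did not pass at an adjusted p of 0.05 (edgeR, quasi-likelihood). The genes that fell were the cyclins CCND1 and CCNE2, the kinase CDK6 and the inhibitor CDKN2B, and their fitted levels stood between 63.5% and 75.1% of siControl. Over all 12489 genes tested, 28.3% were called, 13.7% lower and 14.6% higher. The median log2 fold change of the 10 genes was -0.08, and that of all tested genes was -0.00128. The groups did not overlap in 4 of the 10 genes, close to the 40.8% found over all genes. All 4 falls were called in each of the 17 alternative analyses, and none of the other 6 genes was called in any of them. In such bulk libraries, fewer cells in a state and less RNA per cell cannot be told apart.

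**Figure D1:**
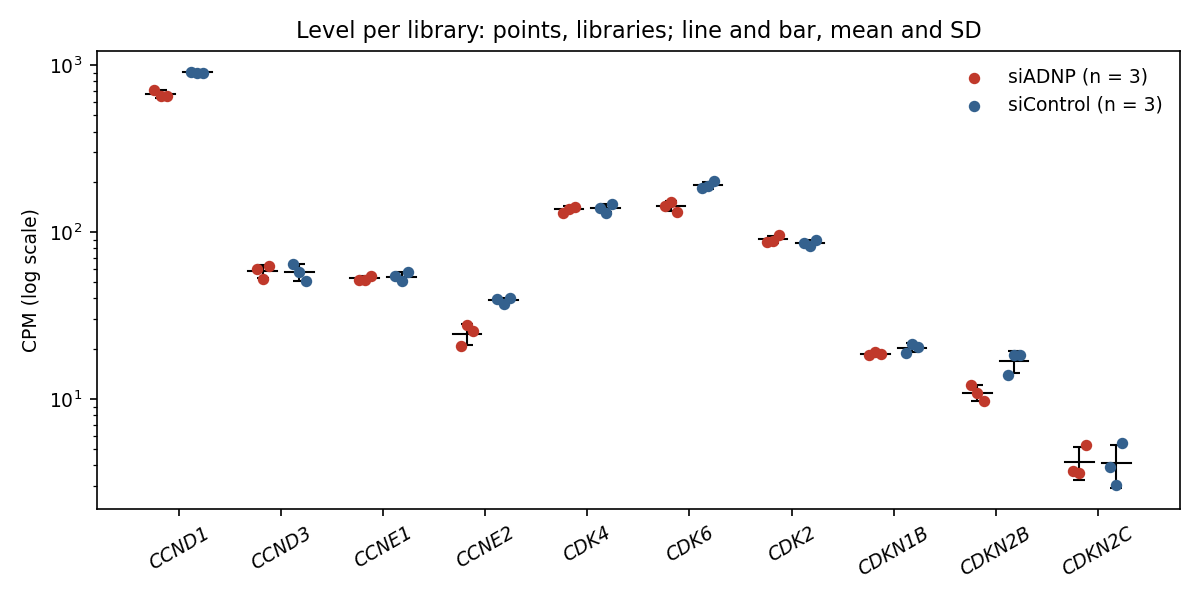
Level of each gene in each library, in CPM on a log scale, with siADNP libraries in red and siControl libraries in blue. Points are libraries, and lines and bars are the mean and SD of 3. The siADNP points lie below the siControl points in CCND1, CCNE2, CDK6 and CDKN2B, and overlap them in the other 6 genes.

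CCND1 encodes cyclin D1, the partner of CDK4 and CDK6 that growth signals induce. It was by far the most abundant of the 10 mRNAs. Its level was 712, 654 and 654 CPM in siADNP libraries and 916, 903 and 895 CPM in siControl libraries, so the highest siADNP library lay well under the lowest siControl library. The means were 673 ± 33.7 and 905 ± 10.7 CPM (SD, n = 3 each). This is a level of 74.4% of siControl (log2 fold change -0.43 ± 0.05 SE, adjusted p = 6.42e-09, edgeR), and -0.44 with the GC correction. In siControl cells its level per length exceeded that of 98.1% of tested genes, and 12.6% of tested genes had a larger fold change in either direction.

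CCND3 encodes cyclin D3, a further D-type cyclin. It stood at 60.5, 52.7 and 62.5 CPM in siADNP libraries and 64.1, 57.8 and 51.0 CPM in siControl libraries, with the groups intermixed. Its log2 fold change was 0.02 with a 95% interval of -0.14 to 0.17 (adjusted p = 0.906, edgeR). That interval does not reach the fall of CCND1. The third D-type cyclin, CCND2, was not tested, with 2, 7 and 4 reads in siADNP libraries and 10, 2 and 2 reads in siControl libraries. It is named here after its values were seen.

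Per length of transcript, CCND1 made up 86.4% ± 1.03 of the D-type cyclin mRNA in siADNP cells and 89.7% ± 0.968 in siControl cells (SD, n = 3 each). The summed level of the D-type cyclins, in TPM (reads per transcript length, scaled to a common total), was 487, 472 and 459 in siADNP libraries against 630, 607 and 615 in siControl libraries, with no overlap. CCND3 was at 63.9 ± 3.83 TPM in siADNP cells against 63.4 ± 6.62 TPM in siControl cells (SD, n = 3 each). The log2 ratio of CCND1 to CCND3 within a library was 2.71, 2.79 and 2.54 with siADNP and 2.99, 3.12 and 3.29 with siControl. The ratio was thus lower in every siADNP library, by a mean of -0.45 on the log2 scale. The two-sided exact permutation test gave p = 0.1, the smallest that 3 libraries against 3 allow, and 0.1 after Benjamini-Hochberg adjustment over the 4 ratios compared. Each of the 4 ratios sets a gene that fell over one that was not called, so a lower ratio in part restates those calls.

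E-type cyclins activate CDK2 at the entry to S phase. CCNE2, which encodes cyclin E2, was at 20.7, 27.6 and 25.5 CPM in siADNP libraries and 39.5, 37.2 and 40.2 CPM in siControl libraries. No siADNP library reached the siControl range, and the means were 24.6 ± 3.56 and 38.9 ± 1.55 CPM (SD, n = 3 each). CCNE2 stood at 63.5% of siControl (log2 fold change -0.65 ± 0.09 SE, adjusted p = 7.61e-07, edgeR). In limma on the deposited log2 values, a scale that compresses low genes, the difference was -0.38. Its longest transcript has a GC content of 36.9%, and with the GC correction the log2 fold change was -0.57 (adjusted p = 7.08e-06, edgeR).

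CCNE1, which encodes cyclin E1, was at 51.6, 51.6 and 54.9 CPM in siADNP libraries and 54.6, 50.7 and 57.3 CPM in siControl libraries, with the groups overlapping. Its log2 fold change was -0.04 with a 95% interval of -0.18 to 0.10 (adjusted p = 0.731, edgeR). CCNE1 was the larger part of the E-type cyclin mRNA per length, at 77.8% ± 2.50 in siADNP cells and 69.4% ± 0.496 in siControl cells (SD, n = 3 each). The summed E-type level was 80.5, 91.2 and 89.0 TPM with siADNP against 101, 93.4 and 108 TPM with siControl. The log2 ratio of CCNE2 to CCNE1 was -2.03, -1.61 and -1.81 in siADNP libraries and -1.17, -1.15 and -1.22 in siControl libraries. Every siADNP library lay lower, by a mean of -0.63 (exact permutation p = 0.1, adjusted 0.1).

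In GENCODE 29, INTS8 on the opposite strand shares 1629 of the 4397 annotated exon bases of CCNE2. The strand setting of the authors' counting is not given, so reads there may be left out or misassigned. The same holds over shorter stretches for CCND1, where LTO1 on the opposite strand shares 497 of 4830 exon bases. In CDK2, AC025162.1 shares 565 of 3894 exon bases and PMEL 89. Opposite-strand genes share 81 of 12260 exon bases of CDK6 and 24 of 5802 of CCND3. INTS8, a subunit of the Integrator complex, had 282, 289 and 277 CPM in siADNP libraries and 294, 321 and 312 CPM in siControl libraries. Its log2 fold change was -0.13 (adjusted p = 0.0494, edgeR), smaller than that of CCNE2, and its part in the CCNE2 value was not tested. The call of INTS8, close to the threshold, was not followed through the alternative analyses.

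CDK6, a kinase that D-type cyclins activate, was at 144, 152 and 133 CPM in siADNP libraries and 183, 189 and 201 CPM in siControl libraries. All siADNP libraries were lower than all siControl libraries. The siADNP mean was 143 ± 10.1 CPM and the siControl mean 191 ± 9.27 CPM (SD, n = 3 each). The log2 fold change was -0.41 ± 0.05 (SE), a level of 75.1% of siControl (adjusted p = 3.39e-07, edgeR). The longest CDK6 transcript has a GC content of 39.5%, and the log2 fold change with the GC correction was -0.34 (adjusted p = 6.56e-06, edgeR).

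CDK4, the other kinase of the D-type cyclins, was at 131, 138 and 142 CPM in siADNP libraries and 140, 131 and 147 CPM in siControl libraries. These ranges overlap, and the log2 fold change was -0.02 with a 95% interval of -0.13 to 0.09 (adjusted p = 0.823, edgeR). TSPAN31 shares 1369 of the 3168 annotated exon bases of CDK4, where reads may be left out or misassigned, and did not pass (log2 fold change 0.08, adjusted p = 0.822, edgeR). The longest CDK6 transcript has 11612 bases and that of CDK4 2076, so the kinases are set side by side per length only. Per length, CDK4 was 84.3% ± 1.26 of the summed CDK4 and CDK6 mRNA in siADNP cells and 80.3% ± 0.799 in siControl cells (SD, n = 3 each). The sum itself was 193, 217 and 206 TPM with siADNP and 219, 206 and 236 TPM with siControl, with overlap. The log2 ratio of CDK6 to CDK4 was -2.34, -2.34 and -2.59 in siADNP libraries and -2.10, -1.96 and -2.03 in siControl libraries, lower in each siADNP library by a mean of -0.40 (exact permutation p = 0.1, adjusted 0.1).

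CDK2, the kinase of the E-type cyclins, did not pass the test. It was at 87.6, 88.0 and 95.9 CPM in siADNP libraries and 85.7, 82.9 and 90.1 CPM in siControl libraries. The ranges overlap, and the log2 fold change was 0.07 with a 95% interval of -0.05 to 0.19 (adjusted p = 0.404, edgeR).

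CDKN2B encodes p15, an INK4 inhibitor known as a target that TGF-beta induces. It was at 12.1, 10.9 and 9.76 CPM in siADNP libraries and 14.01, 18.3 and 18.5 CPM in siControl libraries. The highest siADNP library lay under the lowest siControl library, and the means were 10.9 ± 1.16 and 16.9 ± 2.52 CPM (SD, n = 3 each). CDKN2B stood at 64.5% of siControl (log2 fold change -0.63 ± 0.13 SE, adjusted p = 0.000333, edgeR). The difference was -0.60 with the GC correction and -0.26 in limma on the deposited log2 values. The values rest on 94, 96 and 72 reads with siADNP and 125, 186 and 153 reads with siControl. CDKN2B lies within the antisense gene CDKN2B-AS1 but shares no annotated exon base with it. CDKN2B-AS1 was at 2.83, 2.27 and 1.76 CPM in siADNP libraries and 2.02, 1.38 and 1.81 CPM in siControl libraries and did not pass (log2 fold change 0.41, adjusted p = 0.335, edgeR).

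CDKN2C, which encodes the INK4 inhibitor p18, was the least abundant of the 10. It had 29, 32 and 39 reads in siADNP libraries and 35, 31 and 45 reads in siControl libraries, or 3.72, 3.62 and 5.29 CPM against 3.92, 3.05 and 5.43 CPM. The libraries intermixed, and the log2 fold change of 0.04 had a wide 95% interval, from -0.43 to 0.51 (adjusted p = 0.927, edgeR). That interval holds a fall as large as that of CDK6. The log2 ratio of CDKN2B to CDKN2C was 1.27, 1.16 and 0.455 with siADNP and 1.41, 2.16 and 1.34 with siControl, lower in each siADNP library by a mean of -0.67 (exact permutation p = 0.1, adjusted 0.1). Leaving out 1 library moved that difference between -0.83 and -0.41.

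CDKN1B encodes p27, the CIP/KIP inhibitor of cyclin E and CDK2 that SCF ubiquitin ligases turn over. It was at 18.2, 19.0 and 18.7 CPM in siADNP libraries and 19.0, 21.4 and 20.4 CPM in siControl libraries, with a slight overlap. The log2 fold change was -0.12 with a 95% interval of -0.33 to 0.09 (adjusted p = 0.411, edgeR). Its paralogue CDKN1A, the p21 inhibitor, was at 70.4, 76.1 and 84.3 CPM in siADNP libraries and 158, 172 and 160 CPM in siControl libraries. Per length, the share of CDKN1B in the summed CIP/KIP mRNA was 15.6% ± 1.13 in siADNP cells against 9.26% ± 0.259 in siControl cells (SD, n = 3 each). The summed CIP/KIP level was 105, 123 and 126 TPM with siADNP and 209, 225 and 217 TPM with siControl, while CDKN1B itself was at 18.4 ± 0.972 and 20.1 ± 1.19 TPM (SD, n = 3 each).

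**Figure D2:**
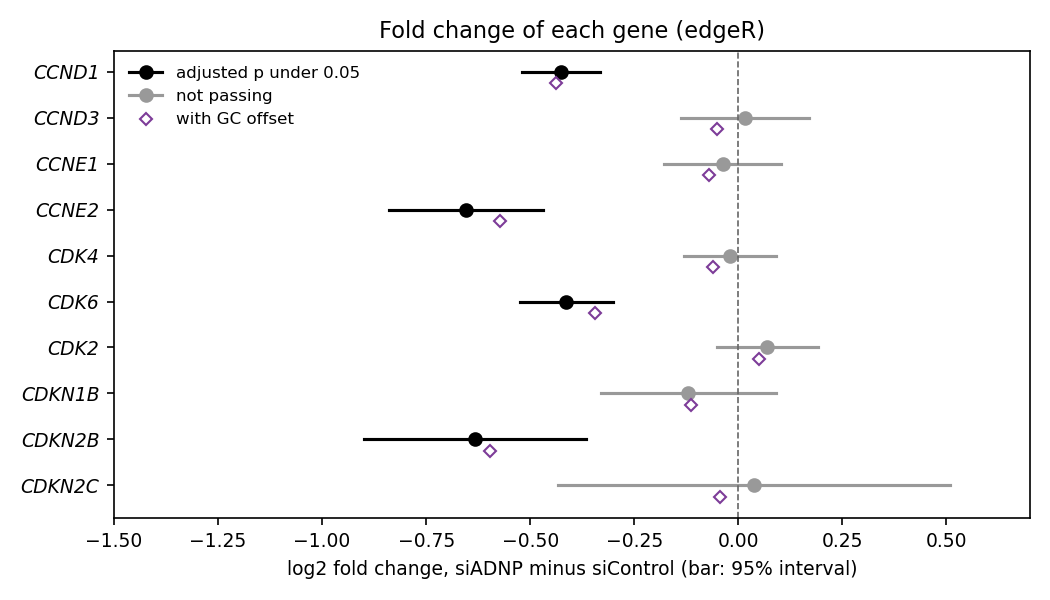
Log2 fold change of each gene, siADNP minus siControl, from edgeR, with 95% intervals and genes in order of role. Black marks an adjusted p under 0.05 and grey the genes that did not pass. Open diamonds are the values with the GC correction. CCND1, CCNE2, CDK6 and CDKN2B lie left of 0 with and without that correction, and the other intervals cross 0.

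Levels per length spanned from 409 TPM for CCND1 to 3.79 TPM for CDKN2C in siADNP cells and from 554 to 3.76 TPM in siControl cells. In each group the order from high to low was CCND1, CDK4, CDK2, CCNE1, CCND3, CDK6, CCNE2, CDKN1B, CDKN2B and CDKN2C. CCNE1 and CCND3, neighbours in that order, overlapped in both groups. CCNE2 and CDKN1B overlapped in siADNP libraries, at 15.9 to 22.5 TPM and 17.5 to 19.4 TPM. In siControl libraries every CCNE2 value lay above the CDKN1B range of 18.7 to 21.0 TPM. The other neighbours did not overlap in either group. These levels use the longest annotated transcript of each gene, so genes mostly expressed as shorter transcripts are set too low.

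**Figure D3:**
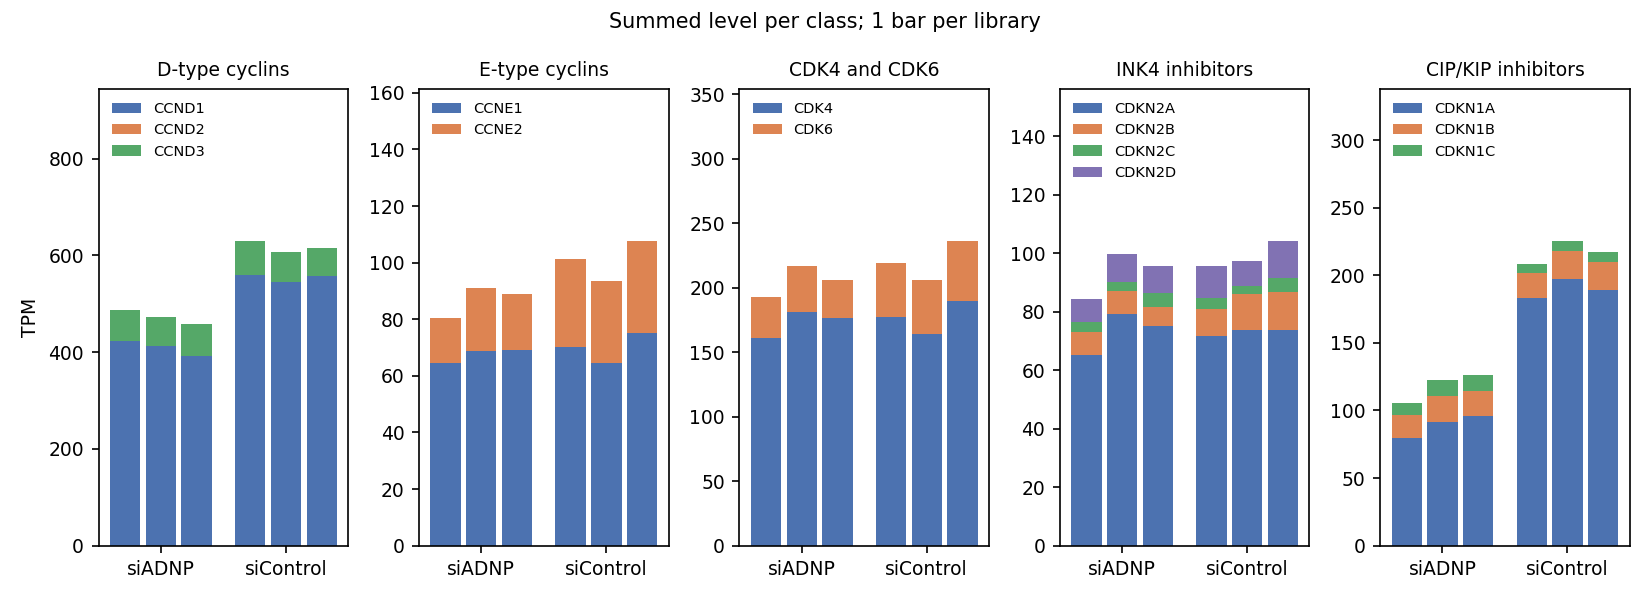
Summed level of each class in TPM, with 1 stacked bar for each library, the 3 siADNP libraries left of the 3 siControl libraries and linear axes from 0. Colours are the genes of the class. The D-type sum was 473 TPM in siADNP cells and 617 TPM in siControl cells. In the same order, the E-type sum was 86.9 and 101 TPM and the CIP/KIP sum 118 and 217 TPM. None of these sums overlapped between the groups, while the CDK4 and CDK6 sum and the INK4 sum did.

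The remaining cyclins, kinases, inhibitors and activators of G1 formed a list of 12 genes, of which 10 were tested. Of these, 1 rose, 4 fell and 5 did not pass, with a median log2 fold change of -0.11. Falls were 40.0% of the tested list against 13.7% of all tested genes, and rises 10% against 14.6%. CDKN1A fell most, to 47.0% of siControl (log2 fold change -1.09, adjusted p = 1.36e-16, edgeR). CDC25A, the phosphatase that activates CDK2, was at 58.8, 56.3 and 54.0 CPM in siADNP libraries and 73.2, 68.3 and 74.3 CPM in siControl libraries, and fell by 0.35 on the log2 scale (adjusted p = 8.57e-05, edgeR). CDK7, the kinase of the CDK-activating complex, fell with -0.22, and cyclin C (CCNC) with -0.14. The inhibitor p57 (CDKN1C) rose 1.55-fold, at 6.42, 8.72 and 8.95 CPM with siADNP and 5.05, 5.21 and 5.31 CPM with siControl (adjusted p = 0.00648, edgeR).

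Within the INK4 class, CDKN2A, which encodes p16 and ARF, made up most of the mRNA per length, at 78.6% ± 1.12 in siADNP cells and 74.0% ± 2.64 in siControl cells (SD, n = 3 each). Its log2 fold change was 0.01 with a 95% interval of -0.15 to 0.17 (adjusted p = 0.935, edgeR). CDKN2D, which encodes p19, did not pass either, with -0.24 and an interval of -0.64 to 0.16. The summed INK4 level was 84.2, 99.6 and 95.6 TPM in siADNP libraries and 95.5, 97.2 and 104 TPM in siControl libraries, with overlap. CDK3 had no read in any library.

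Some of the smaller calls on this list ended under other settings. CDK7 did not pass with DESeq2 (adjusted p = 0.0553), the GC correction (0.0780), without siADNP replicate 1 (0.0550) or without siControl replicate 2 (0.0687), over a range of 0.00762 to 0.0910. CCNC did not pass in 10 of 17 alternatives, among them with the GC correction (log2 fold change -0.07, adjusted p = 0.374), without siADNP replicate 1 (0.131) or 2 (0.0998) and without siControl replicate 1 (0.221) or 2 (0.0910), over a range of 0.0226 to 0.418. CDKN1C did not pass with DESeq2 (0.0554), in a range from 0.00254. The falls on the list numbered 2, not 4, without siADNP replicate 1 or siControl replicate 2, and the rises 2 without siADNP replicate 2.

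Of 18 genes of the RB family, the E2F factors and the MuvB complex, all tested, none rose, 5 fell and 13 did not pass, with a median log2 fold change of -0.10. At 27.8%, the called share was close to the 28.3% of all tested genes. RB1, the retinoblastoma gene, was at 104, 125 and 117 CPM in siADNP libraries and 153, 152 and 140 CPM in siControl libraries, with no overlap. Its log2 fold change was -0.36 (adjusted p = 1.06e-05, edgeR). E2F4, a mostly repressive E2F, and E2F7, an atypical repressor, fell with -0.32 and -0.28, and TFDP1, a partner with which most E2F factors bind DNA, with -0.26. LIN54, the DNA-binding subunit of MuvB, fell with -0.19 (adjusted p = 0.0270, edgeR). LIN54 did not pass without siADNP replicate 2 (0.0746) or 3 (0.103), without siControl replicate 1 (0.0524) or 2 (0.189), with the GC correction (log2 fold change -0.12, adjusted p = 0.180), nor in 3 further settings, over a range of 0.0178 to 0.208.

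Genes that E2F factors activate for S phase gave 2 rises, 3 falls and 15 members not passing among 20 tested, with a median log2 fold change of -0.02. That is 25% called, near the 28.3% of all tested genes. Both subunits of ribonucleotide reductase fell, RRM1 with -0.24 (adjusted p = 0.000221, edgeR) and RRM2 with -0.25 (adjusted p = 9.69e-05, edgeR). PCNA, the sliding clamp of replication, fell with -0.18, at 809, 736 and 802 CPM in siADNP libraries and 920, 899 and 845 CPM in siControl libraries. GINS1 of the replicative helicase rose with 0.29 and thymidylate synthase TYMS with 0.19. GINS1 did not pass without siControl replicate 2 (adjusted p = 0.0535, in a range from 0.000850). TYMS did not pass there (0.136), without siADNP replicate 2 (0.118) or with DESeq2 (0.0630), in a range from 0.00275. No gene of the list was called higher without siControl replicate 2, 1 was without siADNP replicate 2, and 3 were without siADNP replicate 1.

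Genes for the turnover of G1 cyclins and p27 gave 1 rise, 4 falls and 12 members not passing among 17 tested, with a median log2 fold change of -0.08. At 29.4%, the share called was near the 28.3% over all tested genes. FBXW7, the receptor through which an SCF ligase recognises cyclin E, was at 48.6, 55.6 and 52.9 CPM in siADNP libraries and 71.2, 63.2 and 70.8 CPM in siControl libraries. It fell by 0.38 on the log2 scale (adjusted p = 6.20e-05, edgeR). For the recognition of p27, the receptor SKP2 fell with -0.17 and its cofactor CKS1B rose with 0.27. The SCF adaptor SKP1 and scaffold CUL1 fell with -0.14 and -0.13 at adjusted p of 0.0442 and 0.0487 (edgeR).

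Apart from FBXW7, these turnover calls were unstable. SKP1 did not pass without any 1 of the 6 libraries (adjusted p = 0.0543 to 0.143), and CUL1 passed only without siControl replicate 2 among these 6 fits, with the others at 0.0562 to 0.179. With the replicate block neither passed (0.0640 for SKP1 and 0.0706 for CUL1), leaving 2 falls on the list. With the GC correction SKP1 was at -0.07 (adjusted p = 0.295) and CUL1 at -0.10 (adjusted p = 0.162, edgeR). SKP2 did not pass without siADNP replicate 2 (0.139), siControl replicate 1 (0.0650) or siControl replicate 2 (0.0532), with DESeq2 (0.0610) or with the GC correction (log2 fold change -0.11, adjusted p = 0.158), in a range from 0.00841. CKS1B did not pass without siADNP replicate 1 (0.0650) or with DESeq2 (0.0531), in a range from 0.00221. The falls on the list numbered 1 without siADNP replicate 2 or without siControl replicate 1, and 2 without each of the other 4 libraries. Without siADNP replicate 1 no gene of the list was called higher.

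Transcription factors and chromatin proteins known to control these genes gave 3 rises, 5 falls and 10 members not passing among 18 tested, with a median log2 fold change of -0.04. Rises were 16.7% of the list against 14.6% of all tested genes, and falls 27.8% against 13.7%. FOXO3, a forkhead factor known to activate CDKN1B, was at 88.2, 89.8 and 84.6 CPM in siADNP libraries and 59.8, 58.0 and 56.5 CPM in siControl libraries. It rose by 0.59 on the log2 scale, or 1.51-fold (adjusted p = 2.13e-09, edgeR), while CDKN1B did not pass, as given above. SMAD2, a transducer of TGF-beta signals, rose with 0.33 (adjusted p = 6.20e-05, edgeR). The Polycomb proteins BMI1 and EZH2, known to repress the INK4 locus, fell with -0.61 and -0.28 (adjusted p = 0.000122 and 7.50e-05, edgeR). The AP-1 subunits JUN and FOSL1, which can activate CCND1, fell with -0.43 and -0.22 (adjusted p = 0.00514 and 0.00225, edgeR). MYC, named here because of the E-boxes, was at 666, 618 and 656 CPM in siADNP libraries and 725, 713 and 681 CPM in siControl libraries (log2 fold change -0.13, adjusted p = 0.0363, edgeR). The remaining gene called on this list, MEN1, rose with 0.18 (adjusted p = 0.0351, edgeR). The calls of MYC and MEN1 were not followed through the alternative analyses.

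**Figure D4:**
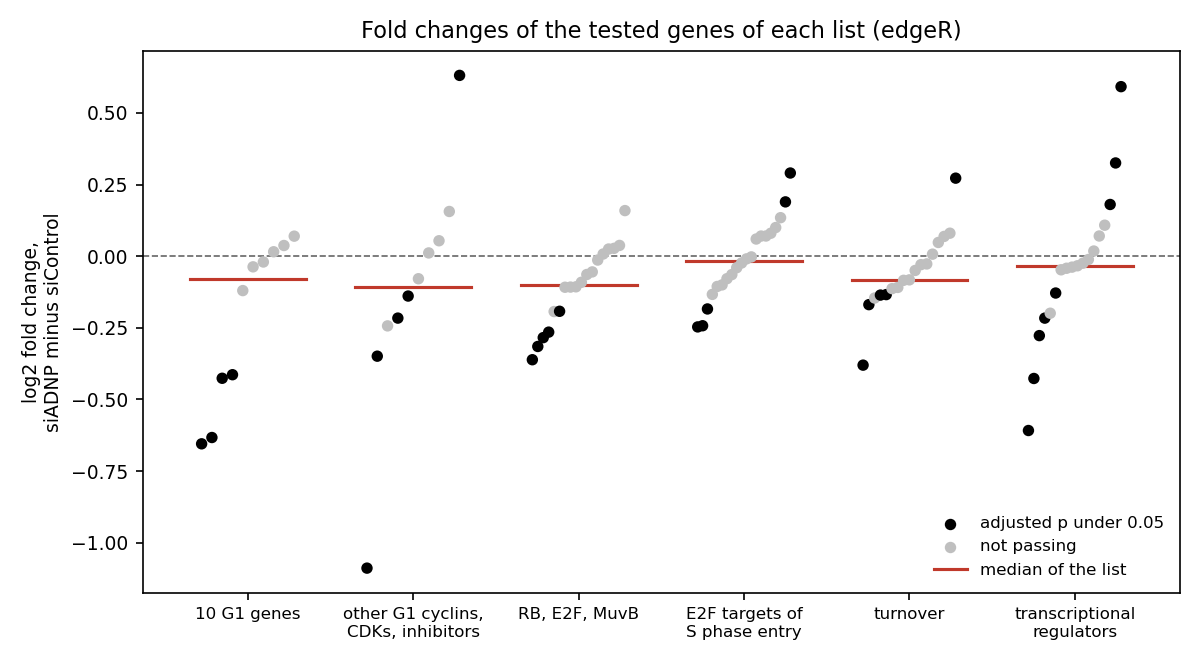
Log2 fold changes, siADNP minus siControl, of the tested genes of each list, 1 point a gene, sorted within a list. Black points passed an adjusted p of 0.05, grey points did not, and red lines are medians. Medians lie between -0.11 and -0.02, and the lists hold 0 to 3 rises and 3 to 5 falls each.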

How the data were processed

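The authors deposited raw read counts per gene symbol, and these were the input of every test but 1. A table of deposited log2 values, which look variance-stabilized, was used only in an alternative test. STAR, HTSeq and DESeq2 on hg19 are named in the submitters' processing notes. No version, annotation or strand setting is stated there.

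Lines that name no gene (no feature 53.5% to 55.7% of reads, not unique 17.4% to 17.9%, ambiguous 0.455% to 0.500%) were left out. The test was edgeR 4.0.16 in R 4.3.3 on siADNP minus siControl, with TMM scaling, filterByExpr (minimum count 10), glmQLFit, glmQLFTest and Benjamini-Hochberg adjustment over 12489 genes. CPM use TMM scaling. TPM, and the GC content and length behind the offsets, use the longest GENCODE 29 transcript, known for 96.7% of tested genes. The GC correction adds a lowess trend per library (span 0.3) as an offset. DESeq2 1.42.0 and limma 3.58.1 ran as alternatives, the fit was tested on simulated data, and figures used matplotlib 3.10.9. No library was a copy of another: chi-square divided by its degrees of freedom was 1.80 to 3.04 within groups. Intervals cover counting and replicate error only.

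The 10 genes and the lists were chosen with earlier results of these data known. The text names ADNP, the 10 genes, from each list the genes that passed or the 6 with the smallest p, and list genes with under 10 reads in every library. CCND2, CDKN2A, CDKN2D, CDKN2B-AS1, INTS8, TSPAN31, KRT19, CD68, MYC and MEN1 were named after their values were seen.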

Additional observations from a re-analysis of the deposited data

How the results depend on the processing

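The 4 falls and the absence of rises among the 10 genes were the same in all 17 alternatives. Near 0, the direction of genes that did not pass was not fixed. CCND3 was at -0.0506 under the GC offset, at -0.0488 when a replicate block was added, and between -0.0621 and 0.0956 leaving out 1 library. CDKN2C was at -0.0430 and -0.0435 in those fits and between -0.155 and 0.268 leaving out 1 library. CDK4 was at 0.00451 with upper-quartile scaling and between -0.0640 and 0.0160 leaving out 1 library, and CCNE1 between -0.0850 and 0.00176. DESeq2's Wald test called 1106 genes higher and 1079 lower, against 1824 and 1714 in edgeR. On the list of other G1 genes it called 0 higher and 2 lower, on E2F targets 1 higher, and on turnover 0 higher and 1 lower. With the GC offset, with or without the replicate block, 2 other G1 genes were higher and 2 lower, and 2 turnover genes were higher and 2 lower. Upper-quartile scaling gave 4 rises of E2F targets and 2 falls in turnover, and library totals 2 falls in turnover. Leaving out 1 library gave 1 to 2 rises and 2 to 4 falls of other G1 genes, 0 to 3 rises of E2F targets, and 0 to 1 rises and 1 to 2 falls in turnover.

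Nothing in the labels says that the replicate numbers pair the libraries. Deviations of same-numbered libraries correlated with r = 0.0221, -0.0315 and -0.0298. No shared effect was thus seen, which does not settle whether the libraries were handled in pairs. The replicate block changed no call of the 10 genes and left 2 falls in turnover, and 1694 genes were higher and 1542 lower. Of 27 named genes outside the 10, 17 were called in every alternative, 10 lost the call in at least 1 and none reversed. KRT19, CD68, INTS8, MYC and MEN1 are not among the 27, and their calls were not followed through the alternatives. Fewer than 50 reads a library limit CDKN2C.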
